A study of Neurospora crassa OR74A with 3 samples.

Results

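The comparison described here set the strain Δ3βGΔncu05853 against its parent Δ3βG, both strains of the filamentous fungus Neurospora crassa growing on cellobiose. In Δ3βG, 3 β-glucosidase genes are deleted, whose products cut cellobiose, a glucose disaccharide, into its sugar units, and Δ3βGΔncu05853 lacks these and also NCU05853, the gene called clp1. Mycelia of either strain were pregrown for 16 h in sucrose and washed. They were then held for 4 h in fresh medium with 2% cellobiose before RNA was taken. The series also holds the strain Δ3βGΔcdt2Δncu05853, which lacks the gene cdt-2 as well. Its times in sucrose (16 h) and cellobiose (4 h, 2%) were the same, and its values appear only at the end of the Results. The parent library held 8586155 reads assigned to genes and the Δ3βGΔncu05853 library 9465639. Each strain had 1 library, and the labels name neither the number of cultures nor that of transformants behind it, so no test across replicates was possible and no p-value is given. Genes were compared when both libraries together held at least 100 reads for them, which left 7084 of 9730 genes. At the edge of that rule, 18 genes held exactly 100 reads and 7 held 99.

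CLP1 resembles the cellodextrin transporters, membrane proteins that carry cellobiose and longer fragments of cellulose into the hypha. In fungi that degrade plant cell walls, such sugars are taken up, split to glucose and sent through glycolysis, and they also act as signals that switch on cellulase genes. When sugar is scarce, fungi run the pathway backwards by gluconeogenesis, feed it from the glyoxylate cycle, and begin to form aerial hyphae and conidia, the asexual spores.

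Most genes stood at nearly the same level in both libraries. Levels were scaled by TMM, under which a gene at an equal level had 1.09 reads in Δ3βGΔncu05853 for each read in Δ3βG. The log2 ratios of Δ3βGΔncu05853 over Δ3βG had a median of -0.0028 and an SD across genes of 0.32, and 81.4% of genes lay within 1.3-fold. At least 1.3-fold higher in Δ3βGΔncu05853 were 696 genes, 9.82% of those compared, and at least 1.3-fold lower were 623, or 8.79%. These shares are the background for every count of genes given below. The counting interval (95%, Clopper-Pearson) excluded equal levels for 641 of the 696 and 579 of the 623, and it lay wholly beyond 1.3-fold for 200 and 220. Larger differences were few. At least 2-fold apart were 27 higher genes (0.381%) and 45 lower genes (0.635%), and at least 3-fold apart were 7 (0.0988%) and 3 (0.0423%). Intervals cover counting error only, and none of these differences has a replicate check.

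The shares depended on depth and moved with gene length. Of genes with 100 to 300 combined reads, 16.4% were at least 1.3-fold higher and 14.4% lower, against 6.37% and 6.64% of genes with over 3000 reads. The fifth of genes with the shortest exons had a median log2 ratio of 0.04 and the fifth with the longest -0.04. Reads outside genes were 9.64% of all reads in Δ3βG and 8.41% in Δ3βGΔncu05853, and reads with several alignments 6.36% and 4.91%. Their part in the ratios was not tested.

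**Figure D1:**
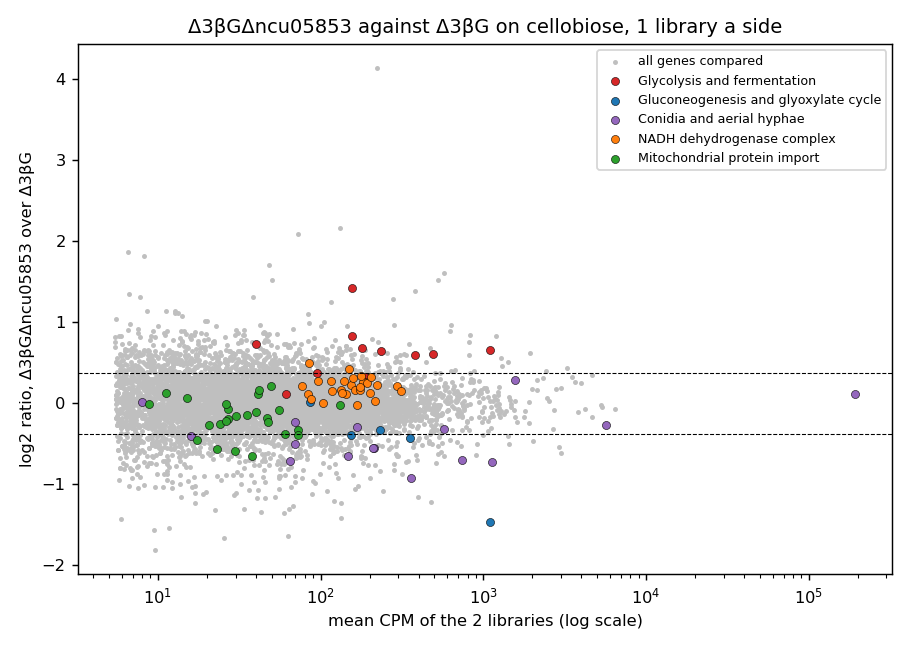
Each point is 1 of 7084 genes, with its mean level in the 2 libraries in CPM (TMM-scaled counts, log axis) and its log2 ratio of Δ3βGΔncu05853 over Δ3βG, and 5 functional lists are coloured. Dashed lines mark 1.3-fold. Genes of glycolysis and fermentation lie above 0, most conidial genes below it, and NCU04276 stands alone at 4.14.

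The deleted gene checked the labels. clp1 (NCU05853) had 4190 reads in Δ3βG (95% Poisson interval 4064 to 4319) and 2 in Δ3βGΔncu05853 (0.242 to 7.22). Its nearest neighbours in the gene order, NCU05852 with 119 and 140 reads and NCU05854 with 284 and 257, lay within 1.3-fold. Further out on one side, NCU05850 had 2014 and 3263 reads, 1.49-fold higher (1.41 to 1.57). Of the β-glucosidase genes that both strains should lack, gh3-3 (NCU08755) had 15 and 14 reads and gh3-4 (NCU04952) had 5 and 14. gh1-1 (NCU00130) had 18 reads in Δ3βG (10.7 to 28.4) and 47 in Δ3βGΔncu05853 (34.5 to 62.5), too few for the comparison but not 0 in either library.

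Glycolysis was the list of genes with the highest median. Of its 11 genes, which include the fermentation genes adh-1 and cfp, 9 were at least 1.3-fold higher, 0 were lower, and the median log2 ratio was 0.65, beside -0.0028 over all genes. Their summed share of gene reads was 0.242% in the parent and 0.374% in Δ3βGΔncu05853. Without adh-1 and cfp, the ratios ran from 1.25 (emp-1) to 1.78 (ace-8). The glucose phosphate isomerase gene gpi-1 had 1579 reads in Δ3βG and 2699 in Δ3βGΔncu05853, and the aldolase gene fba (NCU07807) had 2598 and 4298, which is 1.52-fold higher (1.45 to 1.59). Genes of the payoff steps were higher as well. The glyceraldehyde phosphate dehydrogenase gene gpd-1 had 7401 and 12734 reads, the phosphoglycerate kinase gene pgk (NCU07914) had 1194 and 2097, 1.61-fold higher (1.501 to 1.732), and the pyruvate kinase gene ace-8 (NCU06075) had 970 and 1881, 1.78-fold higher (1.65 to 1.93). Genes named only by the pathway (emp, for Embden-Meyerhof) were also above 0. emp-6 (NCU02252) was 1.66-fold higher (1.42 to 1.93), emp-7 (NCU10042) 1.52-fold (1.46 to 1.59) and emp-3 (NCU00629) 1.302-fold (1.18 to 1.44), and emp-1 (NCU02542) had 1439 and 1965 reads, a ratio of 1.25 (1.17 to 1.34).

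The branch from pyruvate to ethanol did not move as one. The pyruvate decarboxylase gene cfp (NCU02193) had 511 and 601 reads, a ratio of 1.08 whose interval of 0.958 to 1.22 includes equal levels. The alcohol dehydrogenase gene adh-1 had 728 and 2130 reads, and its log2 ratio of 1.42 was the highest among the 1026 compared genes that carry a symbol.

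Gluconeogenesis and the glyoxylate cycle stood on the other side of 0. Of 5 genes, 3 were at least 1.3-fold lower and 0 higher, with a median log2 ratio of -0.39. The phosphoenolpyruvate carboxykinase gene acu-6, which encodes the enzyme that leads back from oxaloacetate towards sugar, had 13996 reads in Δ3βG and 5502 in Δ3βGΔncu05853. Those counts made it the lowest of all genes with a symbol, at a log2 ratio of -1.47. The remaining steps differed much less. The malate synthase gene acu-9 (NCU10007) had 3491 and 2820 reads, 1.35-fold lower (1.28 to 1.42), and fbp-1 (NCU04797), for the fructose bisphosphatase of gluconeogenesis, had 1503 and 1246, 1.31-fold lower (1.22 to 1.42). The isocitrate lyase gene acu-3 (NCU04230) had 2238 and 1935 reads, a log2 ratio of -0.33, which falls short of 1.3-fold. The acetyl-CoA synthetase gene acu-5 (NCU06836) had 740 and 816 reads, a ratio of 1.01 (0.915 to 1.12).

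The citric acid cycle and pyruvate dehydrogenase, which lie between these pathways, stayed near the middle. Of 20 genes, 18 lay within 1.3-fold, and the median was 0.10. The exceptions were tca-2 (NCU02482) with 128 and 227 reads, 1.63-fold higher (1.31 to 2.04), and tca-14 (NCU10008) with 1698 and 2416, 1.31-fold higher (1.23 to 1.39). The citrate synthase gene cit-1 (NCU01692) had 1798 and 2038 reads, a ratio of 1.04. Of the 3 genes of the pentose phosphate pathway, 0 passed 1.3-fold.

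**Figure D2:**
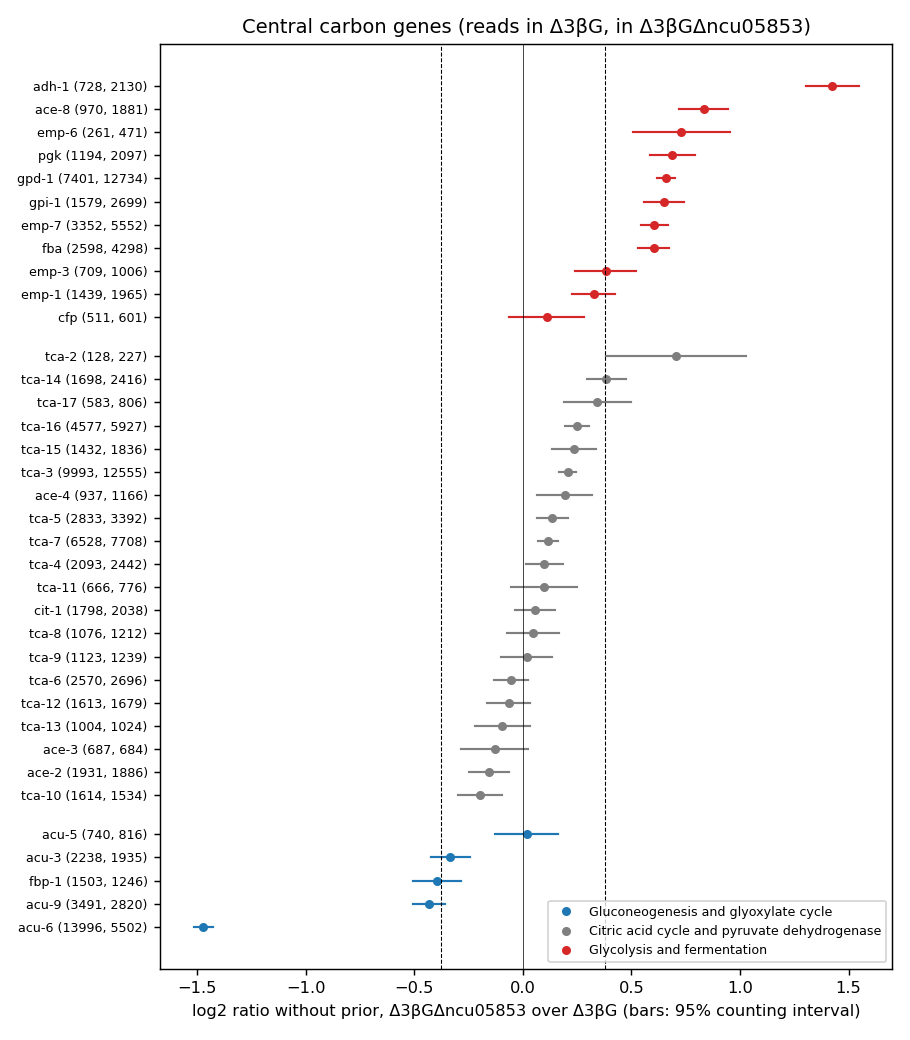
Log2 ratios without a prior count, Δ3βGΔncu05853 over Δ3βG, for the genes of glycolysis and fermentation, the citric acid cycle and pyruvate dehydrogenase, and gluconeogenesis and the glyoxylate cycle, with the reads in both libraries beside each symbol. Points are the ratio of 2 libraries, bars its 95% counting interval and dashed lines 1.3-fold. acu-6 lies apart at -1.47 and adh-1 at 1.42.

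Of 13 genes of starch, glycogen, trehalose and sucrose metabolism, 9 lay within 1.3-fold, 2 were higher and 2 lower. The 2 higher genes both serve glycogen synthesis. Glycogen synthase gsy-1 (NCU06687) had 1286 and 1976 reads, 1.41-fold higher (1.31 to 1.51), and glycogenin gnn (NCU06698), which primes the glycogen chain, had 958 and 1490, 1.43-fold higher (1.32 to 1.55). The 2 lower genes belong to glycoside hydrolase family 13, which holds the α-amylases. gh13-2 (NCU09805) had 637 and 371 reads, 1.87-fold lower (1.64 to 2.13), and gh13-5 (NCU07860) had 112 and 90, 1.36-fold lower (1.02 to 1.81). The glucoamylase gene gla-1 (NCU01517), with 9830 and 10354 reads, and the trehalase gene tre-1 (NCU00943), with 314 and 294, lay within 1.3-fold. The list median was 0.17.

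Lists of mitochondrial genes had medians on both sides of 0. The NADH dehydrogenase complex (complex I), the entry of the respiratory chain, had 28 of 29 genes above 0 with a median of 0.22, but 2 passed 1.3-fold, a share under the background. These were nuo18.4 (NCU00484) with 608 and 936 reads, 1.41-fold higher (1.27 to 1.57), and nuo13.4 (NCU01142) with 1099 and 1605, 1.34-fold (1.24 to 1.45). The lowest member was nuo11.6 at -0.02. Of the 29, 24 belong to the fifth of genes with the shortest exons, whose median over all genes was 0.04. The rest of the chain and the ATP synthase did not share this offset. Its 15 genes had a median of -0.02, with ATP synthase genes atp-1 (NCU02514) at 3141 and 3614 reads and atp-2 (NCU05430) at 6557 and 7023. The cytochrome c gene cyc-1 (NCU01808), the 1 member past 1.3-fold, had 1873 reads in Δ3βG and 1276 in Δ3βGΔncu05853, 1.60-fold lower (1.49 to 1.72). Of 5 genes of alternative respiration, which bypasses proton pumping, 0 passed 1.3-fold, and the median was -0.26, with the alternative oxidase gene aod-1 (NCU07953) at 224 and 203 reads.

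Protein import into mitochondria had 6 of 26 genes at least 1.3-fold lower, 0 higher, and a median of -0.17. They included the small intermembrane chaperone genes tim13 (NCU06244), with 399 and 276 reads and 1.57-fold lower (1.35 to 1.84), tim8 (NCU11311), with 308 and 223 and 1.505-fold lower (1.262 to 1.796), and tim9 (NCU00198), with 586 and 490. tim10 (NCU00930), which encodes the partner of Tim9, had 240 and 249 reads, a ratio of 0.952 (0.794 to 1.14). Genes of the inner membrane translocases were tim50 (NCU02943), 1.48-fold lower (1.21 to 1.82), and tim22 (NCU03798), 1.37-fold lower (1.09 to 1.73). The outer membrane pore gene tom40 (NCU01179) had 710 and 590 reads, 1.31-fold lower (1.17 to 1.46). Of the 26, 10 belong to the fifth of genes with the shortest exons.

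**Figure D3:**
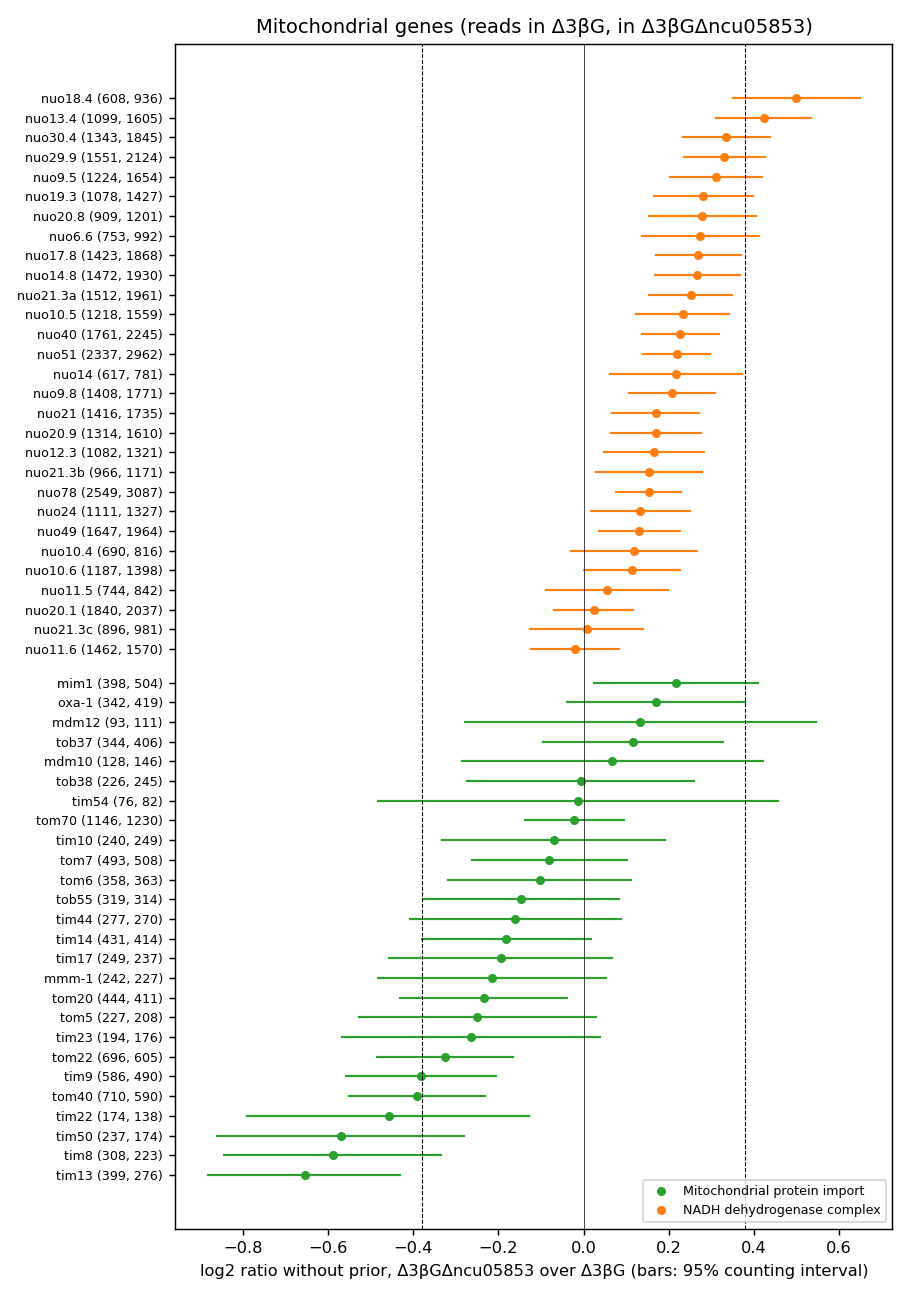
Log2 ratios without a prior count, Δ3βGΔncu05853 over Δ3βG, of 29 genes of the NADH dehydrogenase complex and 26 of mitochondrial protein import, with reads in both libraries beside each symbol, bars for the 95% counting interval and dashed lines at 1.3-fold. All but 1 of the former lie above 0, and 6 of the latter lie beyond 1.3-fold on the lower side.

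Genes of conidia and aerial hyphae had the lowest median of the 34 lists, -0.45, with 9 of 16 genes at least 1.3-fold lower and 0 higher. Regulators such as fl and genes known by their expression in conidiation, such as con-10, were both among the 9. The zinc finger gene fl, which drives conidiation, had 7927 reads in Δ3βG and 5315 in Δ3βGΔncu05853. acon-3 (NCU07617), needed early in conidiation, had 2138 and 1595 reads, 1.46-fold lower (1.37 to 1.56), and acon-2 (NCU00478) had 709 and 545, 1.42-fold lower (1.27 to 1.59). The genes for conidial separation stood lowest. csp-1 (NCU02713) had 4041 and 2325 reads, 1.89-fold lower (1.80 to 1.99), and csp-2 (NCU06095) had 12082 and 7985, 1.65-fold lower (1.60 to 1.70). Of the con genes, expressed during conidiation, con-10 (NCU07325) was 1.64-fold lower (1.45 to 1.85), con-13 (NCU07324) 1.57-fold (1.45 to 1.70) and con-6 (NCU08769) 1.47-fold (1.37 to 1.56), while con-8 (NCU09235) had 5510 and 4840 reads, a log2 ratio of -0.31.

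The most abundant gene of both libraries did not follow. The hydrophobin gene eas, which coats aerial hyphae and conidia, had 1601335 and 1894848 reads, a ratio of 1.09, and ccg-6 (NCU01418) had 12197 and 16272, a ratio of 1.22 (1.196 to 1.254). The gene tah-1, also named for aerial hyphae but outside the list of 16, was 1.95-fold higher (1.58 to 2.41). In RNA from whole mycelia, fewer cells of a type and less RNA per cell cannot be told apart.

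Wall genes held some of the largest differences among genes with a symbol, mostly lower. Of 40 genes compared (7 of 47 had too few reads), 11 were at least 1.3-fold lower and 3 higher, with a median of -0.08. Genes named for non-anchored cell wall proteins (ncw) were on both sides. ncw-5 (NCU00716) had 419 reads in Δ3βG and 184 in Δ3βGΔncu05853, 2.48-fold lower (2.08 to 2.97), ncw-6 (NCU00586) had 1884 and 990, 2.07-fold lower (1.92 to 2.24), and ncw-4 (NCU02948) had 3053 and 2158. Of the same series, ncw-2 (NCU01752) had 217 and 346, 1.46-fold higher (1.23 to 1.74). The family 18 gene gh18-4 (NCU04883), of the chitinase family, had 4731 and 2313 reads, 2.23-fold lower (2.12 to 2.34). Enzymes that build or join glucan and chitin were also among the lower genes of the list. gel-5 (NCU06850), of the glucanosyltransferases, had 111 and 59 reads, 2.05-fold lower (1.48 to 2.86). The glucan synthase gene do (NCU06871) had 20113 and 15932 reads, 1.38-fold lower (1.35 to 1.40), and the chitin synthase gene chs-1 (NCU03611) had 5260 and 4295, 1.33-fold lower (1.28 to 1.39). The same families also held genes near or above 0. gel-3 (NCU08909) had 9417 and 10448 reads, chs-3 (NCU04251) had 2370 and 2538, and ncw-1 (NCU05137) had 4954 and 7183, 1.33-fold higher (1.28 to 1.38). The third higher gene, gh76-5 (NCU09937), had 36 and 70, 1.78-fold (1.18 to 2.75).

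**Figure D4:**
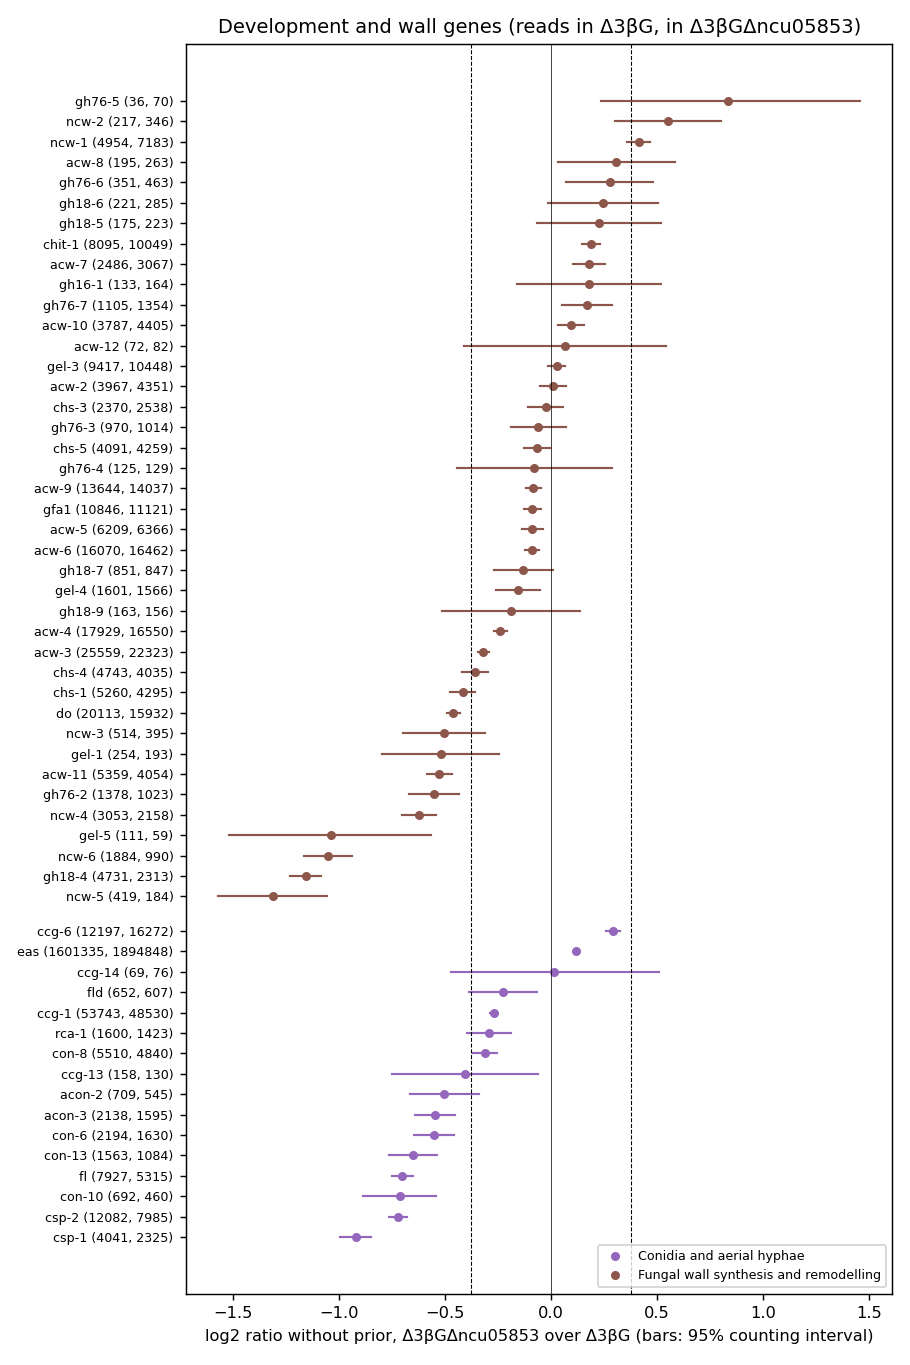
Log2 ratios without a prior count, Δ3βGΔncu05853 over Δ3βG, of 40 genes of the fungal wall and 16 of conidia and aerial hyphae, with reads in both libraries beside each symbol, bars for the 95% counting interval and dashed lines at 1.3-fold. csp-1 and ncw-5 are the lowest of their lists, and eas has the narrowest interval.

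Nitrogen genes passed 1.3-fold in both directions, 5 higher and 3 lower of 16, with a median of 0.002. Higher were genes that draw nitrogen from purines. Xanthine dehydrogenase xdh-1 (NCU03350) had 1882 and 2672 reads, 1.303-fold higher (1.23 to 1.38), allantoinase aln-1 (NCU02296) had 127 and 200, 1.45-fold (1.15 to 1.82), and allantoicase alc-1 (NCU01816) had 305 and 566, 1.70-fold (1.48 to 1.96). Genes of nitrate use were nit-6 (NCU04720), for nitrite reductase, with 68 and 164 reads and 2.21-fold higher (1.66 to 2.98), and the nitrate transporter gene nit-10 (NCU07205), 1.42-fold (1.11 to 1.84). The nitrate reductase gene nit-3 (NCU05298), with 55 and 61 reads, lay within 1.3-fold. Lower were genes of glutamate, arginine and glutamine metabolism. The NAD-dependent glutamate dehydrogenase gene gdh-1 (NCU00461), among the 20 of the 100 most abundant genes that passed 1.3-fold, had 29822 and 22409 reads, 1.45-fold lower (1.42 to 1.48). Arginase aga-1 (NCU02333) had 1657 and 1308, 1.38-fold lower (1.28 to 1.48), and glutamine synthetase gln-1 (NCU06724) had 3774 and 2941, 1.40-fold lower (1.33 to 1.47). The second glutamine synthetase gene, gln-2 (NCU04856), had 3413 and 3958 reads, a ratio of 1.06 (1.02 to 1.11), and the NADP-dependent dehydrogenase gene am (NCU01195) had 149 and 160, a ratio of 0.986.

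Genes of amino acid synthesis passed in both directions too, with 7 of 51 genes at least 1.3-fold higher and 6 lower, a median of 0.05 and shares not far from the background. The methionine synthase gene met-8 (NCU06512) had 3090 and 5423 reads, 1.61-fold higher (1.54 to 1.68), and leu-1 (NCU06232), of leucine synthesis, had 137 and 244, 1.63-fold (1.32 to 2.03). Against these, leu-2 (NCU04385) had 191 and 155 reads, 1.34-fold lower (1.08 to 1.67), and ilv-5 (NCU02397), of isoleucine and valine synthesis, had 1185 and 924, 1.40-fold lower (1.28 to 1.52). Genes of leucine synthesis thus lay on both sides. Of 9 genes of purine and pyrimidine synthesis, 2 were higher, ad-4 (NCU06187) by 1.31-fold (1.12 to 1.53) and the orotidine phosphate decarboxylase gene pyr-4 (NCU03488) by 1.32-fold (1.28 to 1.36).

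Enzymes of plant cell wall breakdown had 26 of 45 genes with enough reads. Of these 26, 10 were at least 1.3-fold higher and 2 lower, with a median of 0.28. Most reads among the higher ones fell on gh2-2 and gh2-3, of family 2, which holds β-galactosidases and β-mannosidases. gh2-2 (NCU05956) had 1052 and 1605 reads, 1.40-fold higher (1.295 to 1.515), gh2-3 (NCU00810) had 441 and 805, 1.68-fold (1.49 to 1.89), and gh35-1 (NCU00642), of a family with β-galactosidases, had 303 and 454, 1.38-fold (1.19 to 1.596). The polygalacturonase family gene gh28-2 (NCU06961) had 206 and 381 reads, 1.70-fold higher (1.43 to 2.02). The cellobiohydrolase gene cbh-1 had 490 and 722 reads, whereas gh6-2 (NCU09680) had 243 and 263, a ratio of 0.993 (0.831 to 1.19). Lower were the α-glucosidase family gene gh31-1 (NCU09281), with 3668 and 2441 reads and 1.64-fold lower (1.55 to 1.72), and the xylanase family gene gh10-4 (NCU07130), with 520 and 355 and 1.60-fold lower (1.39 to 1.83). Both remaining cellodextrin transporter genes were higher, cdt-1 (NCU00801) with 882 and 1501 reads and cdt-2 (NCU08114) with 1907 and 2842. The glucose transporter gene hgt-1 (NCU10021) had 5861 and 6515, a ratio of 1.02 (0.985 to 1.06). Xylose reductase xr (NCU08384) had 39 and 84 reads, 1.98-fold higher (1.34 to 2.97), on few reads.

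The regulators of these enzymes lay near the parent. Of 8 carbon regulators compared, 0 passed 1.3-fold, and their median was 0.04. The cellulase regulator clr-1 (NCU07705) had 648 and 784 reads, a ratio of 1.11, the xylanase regulator xlr-1 (NCU06971) 398 and 458, and the catabolite repressor gene cre-1 (NCU08807) 1358 and 1338. clr-2 (NCU08042), with 42 and 57 reads, was under the minimum of 100.

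Folding in the endoplasmic reticulum and glycoprotein processing had 4 of 14 genes at least 1.3-fold lower and 1 higher, with a median of 0.05. The chaperone gene grp78 (NCU03982) had 31521 and 22360 reads, 1.54-fold lower (1.51 to 1.56). The rest were genes of family 47, the α-mannosidases that trim glycoproteins, and they went both ways. gh47-2 (NCU03134) had 76 and 51 reads, 1.62-fold lower (1.12 to 2.36). gh47-5 (NCU07067) had 9265 and 7100 reads, 1.42-fold lower (1.38 to 1.47), and gh47-6 (NCU02235) had 1106 and 1664, 1.38-fold higher (1.28 to 1.49). The disulfide isomerase family gene erp38 (NCU03739) had 806 and 1022, a ratio of 1.16 (1.06 to 1.28).

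Of 6 catalase and superoxide dismutase genes, 1 was at least 1.3-fold higher and 2 were lower. The catalase gene cat-1 (NCU08791), known from conidia, had 3041 and 1975 reads, 1.68-fold lower (1.58 to 1.78). Another catalase gene, cat-4 (NCU05169), had 416 and 246, 1.84-fold lower (1.57 to 2.17), while cat-2 (NCU05770) with 7954 and 9458 and cat-3 (NCU00355) with 122 and 117 lay within 1.3-fold. The copper-zinc superoxide dismutase gene sod-1 (NCU02133) had 1258 and 2155 reads, 1.57-fold higher (1.47 to 1.69), and the manganese enzyme's gene sod-2 (NCU01213) had 901 and 936, a ratio of 0.954. Heat shock protein genes had a median of 0.014, with 1 of 10 past 1.3-fold, hsp30 (NCU09364) at 155 and 126 reads.

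Clock, light and carotenoid genes had 4 of 20 lower and 1 higher by 1.3-fold. The clock genes proper were nearly level, with frq (NCU02265) at 1979 and 2217 reads, wc-1 (NCU02356) at 1571 and 1717 and wc-2 (NCU00902) at 2009 and 2237, all with ratios of 1.003 to 1.028. Of carotenoid genes, phytoene desaturase al-1 (NCU00552) had 5493 and 3597 reads, 1.66-fold lower (1.59 to 1.74), and geranylgeranyl pyrophosphate synthase al-3 (NCU01427) had 13943 and 11441, 1.33-fold lower (1.295 to 1.361). Phytoene synthase al-2 (NCU00585) had 1804 and 1964 reads, a ratio of 0.999, so the pathway did not shift as one. The 1 higher gene of this list had a log2 ratio of 0.43. Farnesyl pyrophosphate synthase fpp (NCU01175), upstream of both sterols and carotenoids, was counted with lipid and sterol synthesis instead. fpp had 1144 and 1736 reads, 1.39-fold higher (1.292 to 1.502). The blue light induced gene bli-4 (NCU08699) had 445 and 247 reads, 1.96-fold lower (1.68 to 2.30).

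Other lists held few genes past 1.3-fold. The protein kinase gene stk-39 (NCU06230) had 3772 and 7622 reads, 1.85-fold higher (1.78 to 1.93), while 47 of the 53 kinase genes of the stk and prk series lay within 1.3-fold. The Gα gene gna-3 (NCU05206) had 1682 and 1298, 1.41-fold lower (1.31 to 1.52), and the other 15 genes of G protein and cAMP signalling lay within 1.3-fold. mus-18 (NCU08850), for an endonuclease that acts on ultraviolet damage, had 872 and 500 reads, 1.90-fold lower (1.70 to 2.12), while 28 of the 30 repair genes compared lay within 1.3-fold. Of 13 genes of metal and ion transport, 2 were at least 1.3-fold higher, 3 lower and 8 within. Among the calcium transporters of that list, the exchanger gene cax (NCU07075) had 474 and 324 reads, 1.59-fold lower (1.38 to 1.84), and the ATPase gene nca-2 (NCU04736) had 3412 and 2775, 1.34-fold lower (1.27 to 1.41). Outside the lists, ccg-16 (NCU05495) had 3709 and 7895 reads, 1.95-fold higher (1.88 to 2.03), the nucleoside diphosphate kinase gene ndk-1 (NCU04202) had 1447 and 2655, 1.68-fold (1.58 to 1.80), and tah-1 (NCU00289), for a transcription factor, had 133 and 282, 1.95-fold (1.58 to 2.41). Also higher were mig-9 (NCU09141) with 208 and 408 reads, ecd-1 (NCU06302) with 42 and 72, and rrp3 (NCU08435) with 499 and 850. Lower were mip-1 (NCU00276) with 216 and 126 reads, mig-4 (NCU09040) with 689 and 429, the histone methyltransferase gene set-2 (NCU00269) with 288 and 195, and asl-1 (NCU01345) with 1869 and 1293.

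Housekeeping lists lay near the parent. Of 9 histone genes, 22 genes of actin, tubulin and motors, 15 of proton ATPases and 11 of the cytosolic ribosome and elongation, 0 passed 1.3-fold, with medians of 0.03, 0.02, 0.12 and 0.13. The elongation factor gene tef-1 (NCU02003) came closest, with 35114 and 48828 reads and a ratio of 1.28 (1.26 to 1.29). Proteasome genes had 24 of 29 above 0, a median of 0.12 and 3 past 1.3-fold, with pcb-3 (NCU03304) the highest at 677 and 1064 reads, 1.44-fold (1.31 to 1.59). Peroxisome genes had a median of -0.005 and 1 of 22 past 1.3-fold, pex20 (NCU04062), with 329 and 272 reads.

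**Figure D5:**
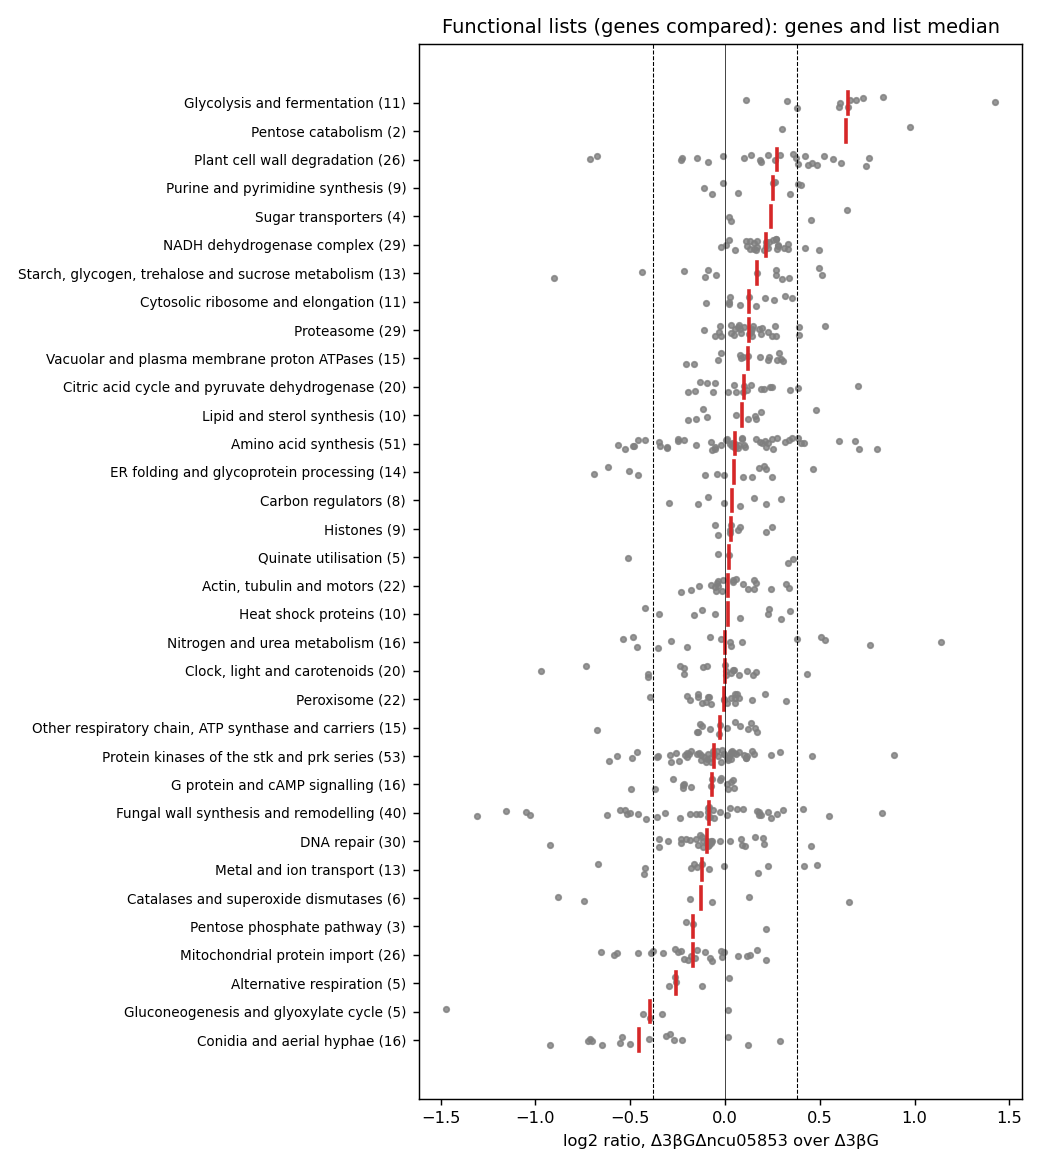
Log2 ratios of Δ3βGΔncu05853 over Δ3βG for each compared gene of 34 functional lists, ordered by the list median (red bar), with the number of genes compared in brackets and dashed lines at 1.3-fold. Glycolysis and fermentation has the highest median, 0.65, and conidia and aerial hyphae the lowest, -0.45. The vertical scatter within a list has no meaning.

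Genes more than 3-fold apart carry no symbol and thus no function here. NCU04276 had 206 and 3964 reads. Its neighbour thr-4 (NCU04277), of threonine synthesis, had 100 and 190, 1.74-fold higher (1.36 to 2.24), and mus-11 (NCU04275) on the other side had 355 and 411, a ratio of 1.06 (0.920 to 1.23). NCU07405 followed with 416 and 2027 reads, 4.47-fold higher (4.02 to 4.98), and NCU05338 had 239 and 1109, 4.26-fold (3.70 to 4.92). NCU04502 had 2442 and 8126 reads, 3.05-fold higher (2.92 to 3.197), and NCU01546 had 195 and 694, 3.27-fold (2.78 to 3.85). On fewer reads, NCU07352 had 24 and 97, 3.71-fold higher (2.35 to 6.07), and NCU03383 had 31 and 120, 3.55-fold (2.38 to 5.46). The 3 lower genes were NCU04727 with 130 and 40 reads, 3.54-fold lower (2.47 to 5.18), NCU06883 with 335 and 115, 3.17-fold (2.56 to 3.96), and NCU06505.

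Genes past 1.3-fold in the same direction also lay side by side. In the RefSeq gene order, 18 stretches of 3 or more neighbours were at least 1.3-fold apart in one direction, 10 higher and 8 lower, with 58 genes in all. The longest was NCU08224 to NCU08228, 5 genes 1.31-fold to 1.61-fold higher. NCU06505, with 827 and 288 reads and 3.13-fold lower (2.73 to 3.59), stood between NCU06504, 2.25-fold lower, and NCU06506, 1.86-fold lower. fl and the 3 genes beside it, NCU08727 to NCU08729, were 1.35-fold to 1.62-fold lower, and sod-1 and tca-2 each ended a stretch of 3 higher genes. For NCU08727, with 73 and 58 reads, the interval of 0.958-fold to 1.97-fold lower included equal levels. The same held for NCU07138 in another stretch, with 42 and 60 reads (0.869-fold to 1.99-fold higher). How many stretches the background shares of 9.82% and 8.79% alone would give was not tested. These stretches were chosen after their values were seen, and overlapping transcripts of neighbours cannot be separated where strand use is not stated.

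The third strain of the series, Δ3βGΔcdt2Δncu05853, lacks cdt-2 as well and gives a second set of values over the same parent library, so the comparisons share their control. Several genes, given as examples and not counted by direction, stood further from Δ3βG there. Among them were the highest and lowest genes with a symbol in Δ3βGΔncu05853. adh-1 had 44753 reads, 71.2-fold higher than in Δ3βG (66.2 to 76.7), and acu-6 had 352, 34.3-fold lower (30.9 to 38.3). ace-8 had 4777 reads, 5.70-fold higher than in Δ3βG (5.32 to 6.12), csp-1 had 784, 4.45-fold lower (4.12 to 4.81), ncw-5 had 51, 7.09-fold lower (5.30 to 9.68), and ccg-16 had 35924, 11.2-fold higher (10.84 to 11.61). Under TMM scaling over all 3 libraries, others stood on the opposite side of the parent. al-1 had 6980 reads, 1.47-fold higher than Δ3βG (1.42 to 1.52), con-10 had 818, 1.37-fold higher (1.24 to 1.52), and grp78 had 34898, 1.28-fold higher (1.263 to 1.302). The factors were 1.10 for Δ3βG and 0.833 for Δ3βGΔcdt2Δncu05853, which puts every ratio above that from library totals. The intervals do not cover this choice. Whether these genes, grp78 above all, stay above the parent on other scalings was not tested. cat-1, with 1589 reads and 1.65-fold lower (1.55 to 1.76), was nearly as far from the parent as in Δ3βGΔncu05853.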

How the data were processed

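RNA of mycelia was sequenced by the submitters, 1 library per strain. The deposited counts are whole reads per gene, made with TopHat and HTSeq per the submitters' processing notes, with versions, genome build, annotation and strand use not given in the sources used here. RPKM values, deposited beside the counts, take every read of a library as its size, differ by at most 1.93e-08 of the value from those recomputed from counts and exon lengths, and were not compared. Reads naming no gene, 16.8% and 14.2% of all reads in Δ3βG and Δ3βGΔncu05853, were left out.

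Symbols came from a RefSeq table of assembly NC12, which matched 9729 of 9730 identifiers and names 1118. Since the build is not stated, it served only for symbols and gene order. Library totals were scaled with TMM factors (edgeR 4.0.16, R 4.3.3) of 1.01 for Δ3βG and 0.994 for Δ3βGΔncu05853, computed on these 2 libraries. The log2 ratio used 0.5 prior counts, adjusted for library size, and folds carry no prior. Intervals are exact (Clopper-Pearson, 95%, conditional on both counts) and cover counting error alone, PCR copies not being separate molecules. Genes were counted as apart at 1.3-fold, 2-fold or 3-fold. The deleted genes were left out of the comparison. Ratios and intervals were tested on simulated Poisson counts with known changes. Such counts hold counting error only, as the intervals assume, so the test says nothing about differences between cultures. Values for the third strain use TMM factors over all 3 libraries.

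The 34 lists were made from symbols, so genes without one are in no list, and a gene may be in more than 1. Members, lists and the choice of fold were made with earlier results of these data known. Named were the main list members past 1.3-fold, the 25 highest and 25 lowest genes with a symbol, genes past 3-fold, and contrasting members near no change; a gene of the repair list is not reported here. Other scalings, minimum counts and a larger prior were tried. No sequence is shown, since no sequence table was used here.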

Additional observations from a re-analysis of the deposited data

How the results depend on the processing

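The numbers of genes past a fold depended on the minimum count. With at least 10 combined reads, 1058 genes were at least 1.3-fold higher and 952 lower, 132 and 122 at least 2-fold, and 30 and 26 at least 3-fold. With at least 500 reads the numbers were 373 and 338, 14 and 26, and 5 and 1. With no filter they were 1358 and 1225, 342 and 301, and 100 and 173. A lower minimum admits genes whose ratios rest on few reads. Scaling on library totals, on DESeq2 size factors, on all reads in the file or on totals without the 50 genes with most reads, TMM over 3 libraries, and a prior of 5 counts left all 6 numbers within 1.5 times. Among these scalings, 634 to 805 genes were at least 1.3-fold higher and 560 to 667 lower, and the median of all genes ranged from -0.02 to 0.02. No list median past 1.3-fold and no named single gene changed sign under any setting tried. This covers Δ3βGΔncu05853 against Δ3βG only, not the values of the third strain. Across those settings, 302 list medians stayed within the typical counting interval of their members and 3 did not, and 582 counts of list members stayed within 1.5 times and 30 did not. No paired analysis was possible because each strain has 1 library and no test was made. With 1 library a side, no replicate could be left out. The pentose catabolism list held no gene with at least 500 reads and has no median there.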
